A study of Homo sapiens with 9 samples.

Results

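The trypsinogen genes PRSS1, PRSS2 and PRSS3 and SPINK1, the gene of a trypsin inhibitor, were followed through 9 RNA sequencing libraries of SW620 cells. They are 4 of the 28307 genes in the table of read counts and were taken from it by symbol. The genes were chosen by their levels in these libraries, with earlier results known: replicate 1 of each group was compared with replicates 2 and 3. That difference is given as a description with no test. Differences between treatments were tested.

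Trypsinogens are the inactive precursors of trypsin, a digestive serine protease made in bulk by the acinar cells of the pancreas. In the gut, enteropeptidase cuts a short peptide from the front of the protein and so activates it, and trypsin can then activate further trypsinogen. PRSS1 encodes cationic trypsinogen, PRSS2 anionic trypsinogen and PRSS3 mesotrypsinogen, whose trypsin resists most protein inhibitors. SPINK1 is a small secreted Kazal-type inhibitor that blocks trypsin formed too early. Trypsinogens and SPINK1 have been described in tumours outside the pancreas, including colon cancers.

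SW620 is an established cell line of a human colon adenocarcinoma that had spread to a lymph node. The cells, labelled WT, were kept from attaching by coated plates and fed a DMEM/F12 medium with N2, glucose, insulin, basic FGF and EGF. All groups shared this medium, which held both growth factors in the untreated group too. Cells were left untreated, or received 120 µM streptomycin (SM) or 120 µM dihydrostreptomycin (DSM) for 48 h, with 3 libraries per group. SM is an aminoglycoside antibiotic, and DSM is the same molecule with the aldehyde of its streptose sugar reduced to an alcohol. Library totals lay between 39315662 and 65562227 counts and genes detected between 18316 and 19613. Colon epithelial markers were high in every library, with a summed level of 13923 to 15021 CPM (counts per 1000000 counts of the library) in the 3 replicates numbered 1 and 11747 to 12503 CPM in the other 6. The libraries numbered 1 stood apart from the rest in many genes of all 3 groups.

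PRSS1 and PRSS2 lie on chromosome 7 of GRCh38.p14, at chr7:142749472-142753072 and chr7:142770970-142774560, inside the T cell receptor beta locus. PRSS3 lies on chromosome 9 at chr9:33750679-33799231, and SPINK1 on chromosome 5 at chr5:147824582-147839196, all per RefSeq. The 3 trypsinogen coding sequences have 741 bases each in the GENCODE transcripts used here and are close copies. PRSS1 and PRSS2 were 92.8% identical, PRSS1 and PRSS3 91.5%, and PRSS2 and PRSS3 93.3%. The stretch below runs from coding base 41 to 120 and covers the run of aspartates and the lysine that enteropeptidase reads. It is shown because it decides how well a read can be placed: capitals mark the 5 bases at which the 3 genes are not all alike.
PRSS1: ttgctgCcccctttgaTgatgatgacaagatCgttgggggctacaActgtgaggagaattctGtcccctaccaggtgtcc
PRSS2: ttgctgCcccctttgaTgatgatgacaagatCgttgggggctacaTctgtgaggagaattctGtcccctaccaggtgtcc
PRSS3: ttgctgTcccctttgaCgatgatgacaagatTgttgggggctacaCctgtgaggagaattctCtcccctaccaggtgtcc

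Over the whole coding sequence, 81 of 741 positions differed among the 3 genes. No window of 75 bases of any of these transcripts occurred unchanged in another of the 3 genes. Of 50-base windows, 3.20% of those in the PRSS1 transcript occurred in PRSS2, 0% in PRSS3, and 1.88% of those in PRSS2 occurred in PRSS3. Windows of 75 coding bases with at most 2 differing bases made up 21.3% for PRSS1 and PRSS2, 3.90% for PRSS1 and PRSS3 and 3.75% for PRSS2 and PRSS3. The read length and the treatment of reads that map to several places could not be taken from the labels, and the split of reads between the 3 genes is uncertain for that reason. Their levels are also given as a sum, which does not depend on how counted reads were split among them. PRSS3 has 4 curated coding transcripts in RefSeq, some of which start far upstream of the other trypsinogen-like start, and the counts do not separate them.

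**Figure D1:**
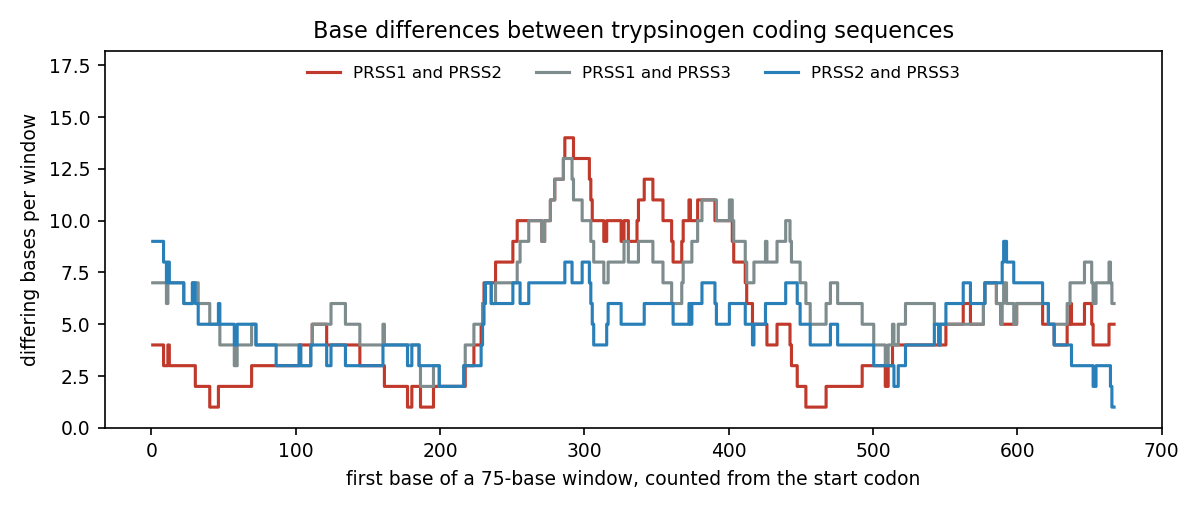
Number of differing bases (vertical axis) in each 75-base window along the coding sequence (horizontal axis, bases from the start codon) for the 3 pairs of trypsinogen genes. The pair PRSS1 and PRSS2 ranges from 1 to 14 differing bases per window, PRSS1 and PRSS3 from 2 to 13 and PRSS2 and PRSS3 from 1 to 9.

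The sequences just upstream of the trypsinogen-like starts of the 3 genes are also near-copies and are shown as a description of the sequence. Each runs from 200 to 27 bases before the start in RefSeq (GRCh38.p14), on the plus strand, at chr7:142749272-142749445, chr7:142770770-142770943 and chr9:33795361-33795534. The PRSS3 window lies inside the gene, whose RefSeq span begins at chr9:33750679, and does not cover its upstream starts. Which start gave the PRSS3 counts is not known. Capitals mark CACCTG or its reverse complement CAGGTG, an E-box form that occurs in the sites of the acinar factor PTF1, and TATAAA, the core of a TATA box. Both strands were searched and no matches overlapped.
PRSS1: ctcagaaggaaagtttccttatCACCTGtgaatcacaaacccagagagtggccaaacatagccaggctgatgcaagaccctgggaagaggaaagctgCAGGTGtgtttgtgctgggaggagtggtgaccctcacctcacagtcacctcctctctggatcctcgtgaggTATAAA
PRSS2: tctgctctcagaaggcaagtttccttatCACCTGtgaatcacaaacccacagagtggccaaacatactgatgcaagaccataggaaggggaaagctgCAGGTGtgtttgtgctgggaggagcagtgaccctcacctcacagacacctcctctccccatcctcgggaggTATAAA
PRSS3: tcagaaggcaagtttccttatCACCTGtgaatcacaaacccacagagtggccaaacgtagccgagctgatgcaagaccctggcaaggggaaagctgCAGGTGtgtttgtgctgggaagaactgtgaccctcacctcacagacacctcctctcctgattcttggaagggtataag

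The windows of PRSS1 and PRSS2 were 86.7% identical over their alignment, those of PRSS1 and PRSS3 88.0% and those of PRSS2 and PRSS3 85.1%. CACCTG in either orientation was in all 3, against 12.7% of 35116 windows of the same length upstream of RefSeq starts. As near-copies, the 3 windows are not separate observations. The SPINK1 window, which overlaps a SPINK1 exon, held CACCTG too. TATAAA was in the windows of PRSS1 and PRSS2, from 32 bases before the start to the last base of the window. It occurred in 6.26% of all windows, but nothing is read from that share, since the window ends on this match in both genes. TATAAA was not in the window of PRSS3 as these letters, and a match or its lack is a description of the sequence only. PTF1A, the acinar subunit of PTF1, had 1 read in all 9 libraries together, and so did its partner gene RBPJL.

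PRSS2 was the most abundant of the 4 genes per length in every library, followed by PRSS3, PRSS1 and SPINK1. On the scale of CPM per kilobase of transcript, PRSS2 lay between 81.4 and 89.1 in the libraries numbered 1 and between 236 and 307 in the other 6. PRSS3 lay between 38.1 and 44.3 and between 33.5 and 38.8, PRSS1 between 1.69 and 2.22 and between 14.5 and 22.1, and SPINK1 between 0.0563 and 0.173 and between 0.196 and 0.579. The ranges of neighbouring genes in that order did not overlap within either set of libraries. By CPM, PRSS2 ranked from 763 to 1096 among the 28307 genes in the libraries numbered 2 and 3, and from 3424 to 3665 in those numbered 1. All 3 trypsinogens together took 0.00985% to 0.0293% of the counts of a library.

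PRSS2, the anionic trypsinogen gene, was at 68.0, 188 and 244 CPM in untreated replicates 1, 2 and 3. With SM it was at 70.9, 195 and 243 CPM, and with DSM at 64.7, 188 and 243 CPM. The 3 libraries numbered 1 were the lowest in every group, those numbered 2 were intermediate and those numbered 3 the highest, and the ranges of the 3 numbers did not overlap. Over the 3 groups, the log2 ratio of replicate 1 to the mean of replicates 2 and 3 was -1.68 ± 0.0545 (SD, n = 3 groups), a 3.19-fold lower level. Replicate 3 exceeded replicate 2 by 0.32 to 0.38 on the log2 scale. Libraries of the same number lay close together, and their largest difference between any 2 groups was 0.13 on the log2 scale.

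PRSS1, the cationic trypsinogen gene, was at 1.45, 11.8 and 17.0 CPM in untreated replicates 1, 2 and 3, from 95, 668 and 1031 reads. With SM it was at 1.78, 13.1 and 17.7 CPM, and with DSM at 1.35, 11.6 and 15.9 CPM. The order of the replicate numbers was that of PRSS2, with a wider gap. Its log2 ratio of replicate 1 to the mean of the other 2 replicates was -3.31 in untreated, -3.12 in SM and -3.35 in DSM cells, on average a 9.57-fold lower level. Among the 15605 tested genes with a finite ratio in every group, PRSS1 was number 2 from the lowest, SPINK1 number 21, PRSS2 number 37 and PRSS3 number 12542. These places are not a finding, since this comparison is treated as the one that chose the genes.

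PRSS3, the mesotrypsinogen gene, was at 31.8, 27.9 and 31.8 CPM in untreated replicates 1, 2 and 3. With SM it was at 37.0, 30.1 and 30.9 CPM, and with DSM at 32.4, 28.9 and 32.4 CPM. SM replicate 1 was the highest library and the 3 replicates numbered 2 the lowest of their groups. The libraries numbered 1 overlapped the others in PRSS3, and their log2 ratio to the mean of the other 2 replicates was 0.15 ± 0.111 (SD, n = 3 groups), opposite in sign to PRSS1 and PRSS2. With all 3 genes summed, the level was 101, 228 and 293 CPM in untreated replicates 1, 2 and 3, 110, 238 and 291 CPM with SM and 98.5, 228 and 291 CPM with DSM. The sum in replicate 1 was therefore 2.54-fold below the mean of the other 2, whatever the split of reads between the copies.

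SPINK1 was close to the limit of detection. It had 2, 6 and 16 reads in untreated replicates 1, 2 and 3 (0.0305, 0.106 and 0.263 CPM), 5, 5 and 14 with SM (0.0936, 0.127 and 0.256 CPM) and 3, 12 and 17 with DSM (0.0533, 0.228 and 0.314 CPM). The libraries numbered 1 were the lowest of their groups, though SM replicates 1 and 2 had the same 5 reads. Exact Poisson 95% intervals, which cover counting error only, were wide, such as 0.0304 to 0.218 CPM in SM replicate 1 and 0.0413 to 0.297 CPM in SM replicate 2. In all, the libraries numbered 1 held 10 reads and the other 6 held 70, or 0.0570 and 0.220 CPM of their summed totals. Only 4 libraries held 10 reads or more and 0 of these were numbered 1, so the gene passed the filter on low counts through the libraries in which it was higher.

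All 3 libraries numbered 1 lay below the other 6 for PRSS1, PRSS2 and SPINK1. This held for 19.3% of the 15619 tested genes, and 13.7% lay above, so that such an order was common. A level at least 2-fold lower in replicate 1 in each of the 3 groups, as in these 3 genes, was found for 0.365% of tested genes, and a level at least 2-fold higher in each for 0.269%. Nothing is read from these shares, since the same comparison is treated as the one that chose the genes. What the replicate numbers share is not given in the labels. In bulk RNA, fewer cells that express a gene and less RNA per cell cannot be told apart.

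**Figure D2:**
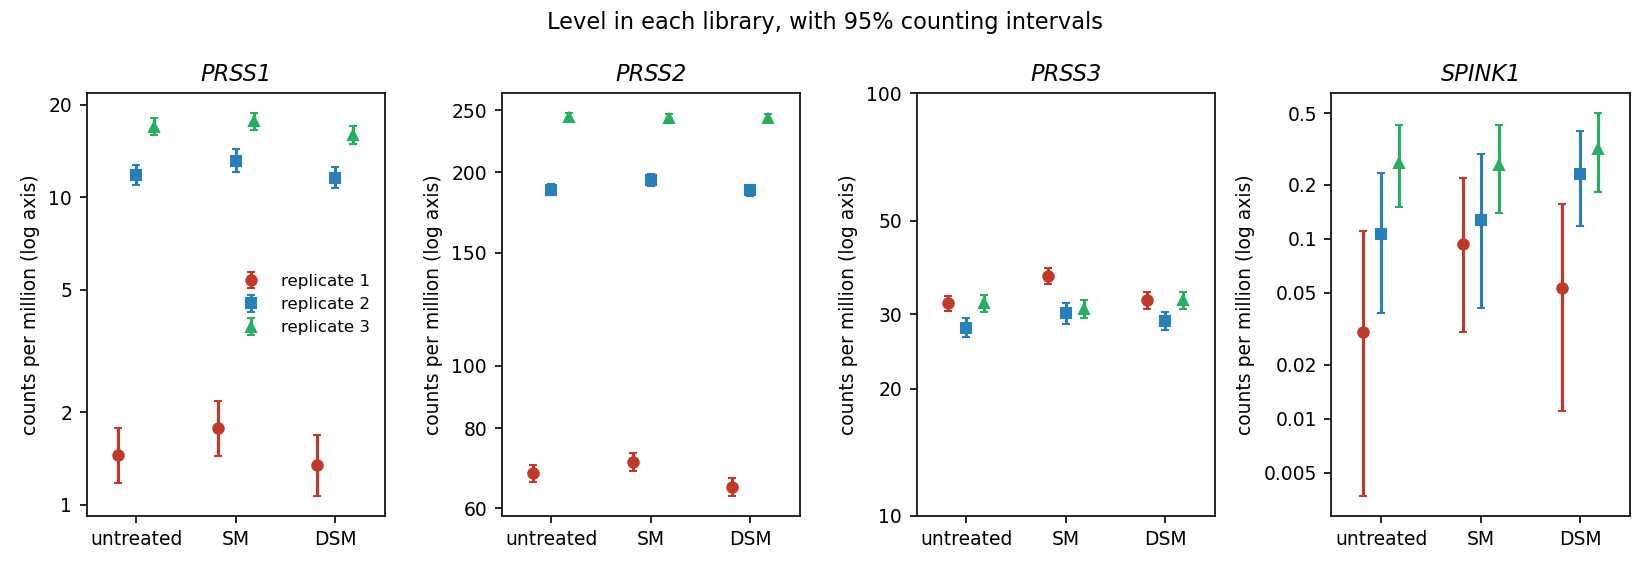
CPM of each gene (vertical log axis, with its own range in each panel) in every library, by group; colours and shapes mark the replicate number, and bars are exact Poisson 95% intervals. PRSS1 and PRSS2 separate by replicate number in the same order in all 3 groups, PRSS3 stays between 27.9 and 37.0 CPM, and the bars of SPINK1 are wide.

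**Figure D3:**
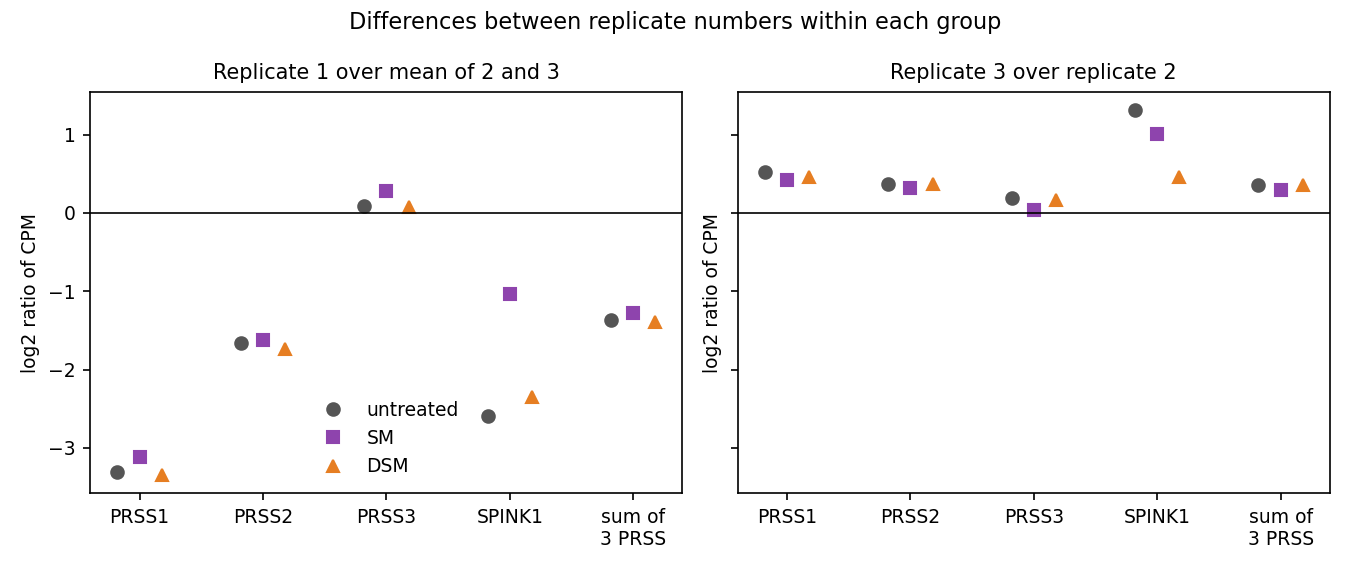
Log2 ratio of CPM between replicate numbers (vertical axis) for each gene and for the summed trypsinogens, with 1 point per group. On the left, replicate 1 lies below the mean of replicates 2 and 3 for PRSS1, PRSS2 and SPINK1 and slightly above it for PRSS3; on the right, replicate 3 lies above replicate 2 for every gene.

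The division of reads between the copies moved with the replicate number. PRSS1 made up 2.09%, 5.91% and 6.51% of the reads of PRSS1 and PRSS2 together in untreated replicates 1, 2 and 3. The share was 2.45%, 6.33% and 6.79% with SM and 2.04%, 5.81% and 6.14% with DSM. The Wilson 95% interval, for counting error only, was 1.71% to 2.54% in untreated replicate 1 and 6.13% to 6.90% in untreated replicate 3. These shares come from the comparison treated as the one that chose the genes and are a description. There were 39.9 to 47.9 PRSS2 reads for each PRSS1 read in the replicates numbered 1 and 13.7 to 16.2 in the others. PRSS3 made up 31.4% to 33.7% of all trypsinogen reads in the libraries numbered 1 and 10.6% to 12.7% in the others.

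**Figure D4:**
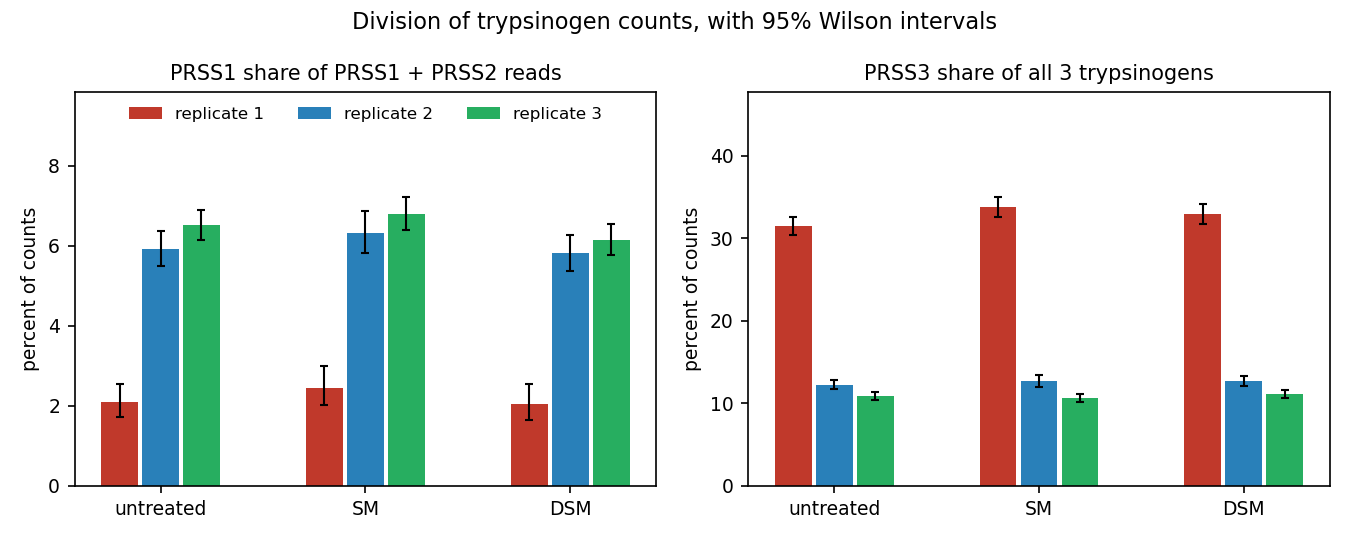
Percent of counts (vertical axis) in each library, by group and replicate number: PRSS1 among PRSS1 and PRSS2 reads on the left, PRSS3 among all trypsinogen reads on the right, with Wilson 95% intervals that cover counting error only. The PRSS1 share is 2.04% to 2.45% in the replicates numbered 1 and 5.81% to 6.79% in the others.

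The first tested comparison asked how SM changed these genes. None of the 4 passed with SM against untreated cells (edgeR quasi-likelihood test over 15619 genes, adjusted p at least 0.999 for each), and 0 of 4 had an unadjusted p under 0.05. In that fit 0.0192% of tested genes passed. The log2 fold change was 0.11 for PRSS1 (95% interval -2.43 to 2.66), 0.02 for PRSS2 (-1.47 to 1.52), 0.09 for PRSS3 (-0.12 to 0.30) and 0.28 for SPINK1 (-1.43 to 2.00). These intervals take in the spread between replicate numbers. Same-numbered libraries deviated together, and with the number entered as a block the intervals were -0.03 to 0.28 for PRSS1 (0.13, edgeR adjusted p = 0.467), -0.04 to 0.09 for PRSS2 (0.03, adjusted p = 0.764) and -0.01 to 0.19 for PRSS3 (0.09, adjusted p = 0.424). For SPINK1 the interval was still -0.75 to 1.37 (0.31, adjusted p = 0.838). With the block 2.74% of genes passed, 1.2% higher and 1.54% lower, and none of the 4 was among them. PRSS1 was higher with SM in all 3 pairs of same-numbered libraries, by 0.30, 0.16 and 0.06 on the log2 scale. PRSS2, PRSS3 and SPINK1 were each higher in 2 of 3 pairs. Without the block, the sign for PRSS1 depended on single libraries, with -0.41 when untreated replicate 1 was left out -0.05 when SM replicate 2 was and -0.45 when SM replicate 3 was. With all libraries numbered 1 left out, which was tried after seeing the data, the values were 0.11 for PRSS1, 0.02 for PRSS2, 0.03 for PRSS3 and 0.10 for SPINK1, with none called.

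In DSM against untreated cells, the log2 fold change in the blocked fit was -0.08 for PRSS1 (interval -0.23 to 0.08), -0.03 for PRSS2 (-0.10 to 0.03), 0.03 for PRSS3 (-0.08 to 0.13) and 0.58 for SPINK1 (-0.42 to 1.58). None passed with or without the block (edgeR adjusted p = 0.999 for each with it), and 0% of all genes passed in either fit, with 103 genes at an unadjusted p under 0.05 without the block and 0 genes called by DESeq2 or limma voom. With the block 650 genes had an unadjusted p under 0.05, and 0 of the 4. PRSS1 and PRSS2 were lower with DSM in 3 of 3 pairs and PRSS3 and SPINK1 higher in 3 of 3, all by amounts that the test did not call. On the log2 scale the pairs differed by -0.10, -0.03 and -0.10 for PRSS1 and by -0.07, -0.0027 and -0.0064 for PRSS2. They differed by 0.03, 0.05 and 0.03 for PRSS3 and by 0.80, 1.11 and 0.25 for SPINK1. How many of all tested genes kept the same direction in 3 of 3 pairs was not counted for any comparison. For SPINK1 these differences rest on 24 untreated and 32 DSM reads in all. The summed trypsinogens differed by -0.02 (blocked interval -0.09 to 0.05). Without the libraries numbered 1, the values were -0.08 for PRSS1, -0.01 for PRSS2, 0.03 for PRSS3 and 0.53 for SPINK1.

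SM and DSM were compared directly, as 1 pair of compounds at the same 120 µM and 48 h that differ in the aldehyde or alcohol of the streptose sugar. PRSS1 was at 1.78, 13.1 and 17.7 CPM with SM and at 1.35, 11.6 and 15.9 CPM with DSM in replicates 1, 2 and 3, higher with SM in 3 of 3 pairs by 0.40, 0.18 and 0.15 on the log2 scale. The blocked log2 fold change was 0.20 (SE 0.08, interval 0.04 to 0.36), which did not pass over all genes (edgeR adjusted p = 0.169, unadjusted p = 0.0148). It was the only one of the 4 genes with an unadjusted p under 0.05, beside 2535 of the 15619 tested genes in the blocked fit. PRSS2 differed by 0.06 (interval -0.01 to 0.13, adjusted p = 0.379) and PRSS3 by 0.06 (-0.04 to 0.17, adjusted p = 0.598). SPINK1 differed by -0.27 (-1.28 to 0.74, adjusted p = 0.849). With the summed trypsinogens the difference was 0.07 (0.00394 to 0.139, adjusted p = 0.274). In this fit 3.88% of all genes passed, 1.73% higher and 2.15% lower with SM, and 0% without the block, where 396 genes had an unadjusted p under 0.05, DESeq2 called 11 genes and limma voom 0. Without the block the values were 0.19 for PRSS1 (-2.37 to 2.74), 0.04 for PRSS2, 0.07 for PRSS3 and -0.28 for SPINK1, with none called. Without the libraries numbered 1 they were 0.18, 0.04, 0.0024 and -0.43 in the same order, again with none called. An adjusted p above 0.05 does not show that both compounds act alike on these genes. These 3 comparisons share libraries and are not independent of each other.

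**Figure D5:**
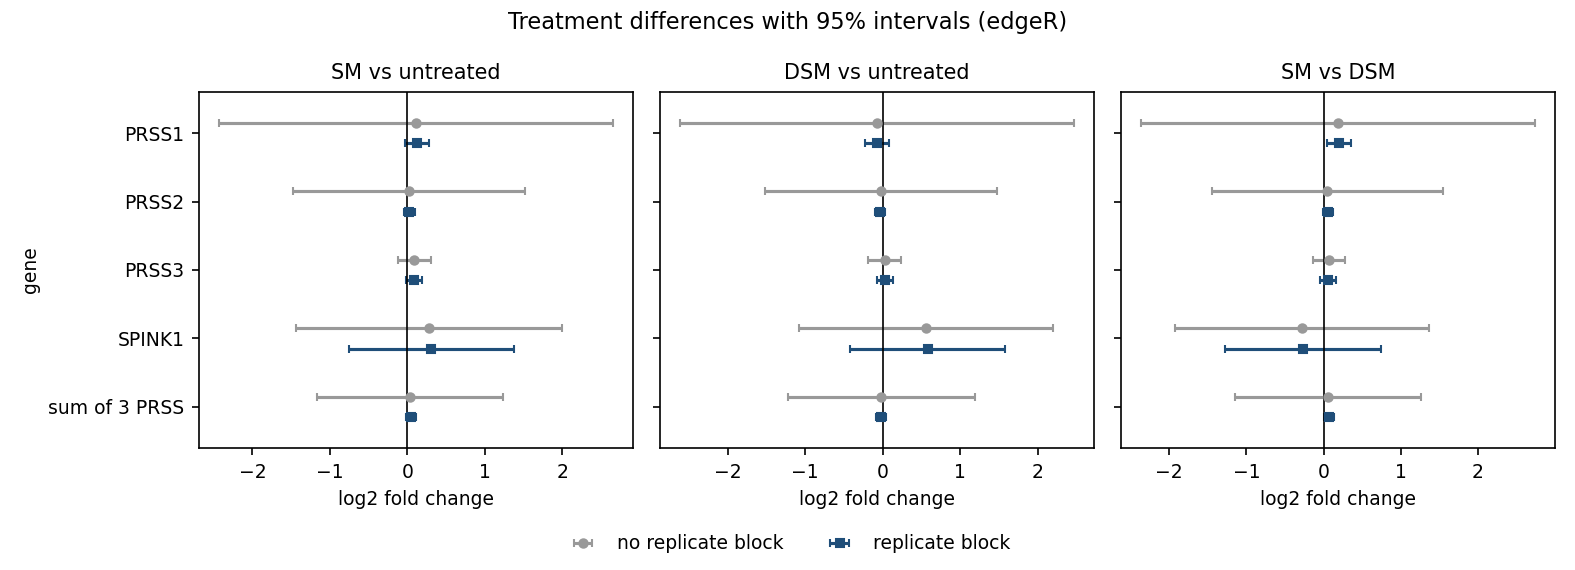
Log2 fold change (horizontal axis) with its 95% interval for each gene and for the summed trypsinogens in the 3 treatment comparisons, in edgeR fits without (grey circles) and with (blue squares) the replicate number as a block. The block narrows the intervals of PRSS1 and PRSS2 most, and with it only PRSS1 and the sum in SM against DSM have an interval that does not include 0, neither passing after adjustment.

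The genes most like the trypsinogens across the 9 libraries were taken from 10128 candidates of at least 5 CPM by Pearson's r of log2 CPM, as a description. PRSS1 and PRSS2 were most like each other, with r = 0.998. The split of reads between the trypsinogen copies is uncertain, and its part in the r values among them was not tested. Outside the family, PRSS1 was most like NUP210, a nuclear pore gene (0.997), CLN6, a membrane protein gene of the endoplasmic reticulum (0.995), TFCP2L1, a transcription factor gene (0.992), the DNA polymerase gene POLE (0.987) and the DNA repair gene XRCC3 (0.986). For PRSS2 the first 4 were NUP210, CLN6, TFCP2L1 and XRCC3 (0.994, 0.994, 0.991 and 0.990), followed by the helicase gene DDX11 (0.986). All of these points share the difference between replicate numbers. PRSS3 went with other genes, ZNF704, the cell cycle phosphatase gene CDC25B, ZNF189, CCDC86 and FBXO27 (0.937 to 0.920), and had r = -0.65 with PRSS1 and -0.64 with PRSS2. After the mean of each replicate number was subtracted, r was 0.90 for PRSS1 and PRSS2, 0.75 for PRSS1 and PRSS3 and 0.68 for PRSS2 and PRSS3. The closest genes were then FGF19, JOSD1, CACTIN, DHX34 and SMG5 for PRSS1 (0.980 to 0.974), UBOX5, KCNC4, ATG16L1, PDSS2 and TTLL12 for PRSS2 (0.983 to 0.961) and RNF227, JAKMIP3, MAU2, RARA and IL18BP for PRSS3 (0.972 to 0.946), with none shared between the lists. The genes named here have the highest r of 10128 candidates over only 9 libraries. How high the r of unrelated genes would reach was not tested. SPINK1 was too low for this measure.

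Of 11 genes listed as activators of trypsinogens or sensors of trypsin, 9 were tested. CTRC, whose product degrades trypsinogen, is also among them, so the list does not hold activators and sensors alone. TMPRSS15, the enteropeptidase gene, had 3 reads in all libraries together. CTSB, the gene of the lysosomal protease cathepsin B that can cut trypsinogen, was at 107, 125 and 110 CPM in untreated, 125, 144 and 130 in SM and 106, 122 and 109 CPM in DSM replicates 1, 2 and 3. It rose with SM in the blocked fit, by 0.22 (SE 0.03, edgeR adjusted p = 1.27e-04), and lay 0.24 (SE 0.03) higher with SM than with DSM (adjusted p = 3.29e-05). The other 8, among them the gene of the trypsin receptor F2RL1, were not called, and the list's median log2 fold change with SM was -0.04 beside -0.000908 over all genes. With the block, 2.74% of all tested genes passed for SM against untreated cells and 3.88% for SM against DSM.

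Of 41 genes listed as other inhibitors of serine proteases, 22 were tested. HGFAC, itself a protease gene, and KAZN are among the 22 though they do not encode such inhibitors. With SM and the block, SERPINB1 fell by 0.16 (SE 0.03) against untreated cells. Against DSM, SERPINB1 and the alpha-1 antitrypsin gene SERPINA1 were lower (-0.18, SE 0.03, and -0.26, SE 0.05). Over all tested genes, 2.74% passed with the block for SM against untreated cells and 3.88% for SM against DSM. The list's median was -0.03 against untreated cells. In the replicates numbered 1, 2 of the 22 lay below and 6 above all other libraries, beside 19.3% and 13.7% of all tested genes. SLPI, the gene of a secreted leukocyte protease inhibitor, chosen after its values were seen, was at 1.08, 3.53 and 4.03 CPM in untreated replicates 1, 2 and 3, and had a mean log2 ratio of -1.88.

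Of 58 genes listed as other proteases of the trypsin fold, 42 were tested. Of these, 6 lay below and 8 above all other libraries in the replicates numbered 1, beside 19.3% and 13.7% of all tested genes. Their median log2 ratio was -0.0092 beside -0.035 over all genes. F3 and PRSS16, both among the 6 below, were listed though they are not proteases of that fold. PRSS23 shares only the name prefix and the protease fold with the trypsinogens, and it was highest in replicate 1, at 27.5, 12.2 and 12.6 CPM in untreated replicates 1, 2 and 3. In the blocked fit PRSS23 fell with SM by 0.34 (SE 0.06, edgeR adjusted p = 0.0012) and HTRA3, a secreted protease gene, rose by 0.74 (SE 0.10). Both also differed between SM and DSM (-0.37, SE 0.06, and 0.77, SE 0.10), as did TMPRSS2, a membrane protease gene, at -0.24 (SE 0.06). Among all tested genes, 2.74% passed with the block for SM against untreated cells and 3.88% for SM against DSM. With DSM against untreated cells and the block, 0 genes of any list were called, and 0 of all 15619 tested genes.

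Of 16 listed copies and neighbours of the trypsinogen genes, 9 were in the table and 3 were tested. The trypsinogen-like copies PRSS3P2 and TRY2P had 0 reads in every library. EPHB6, a gene near PRSS2 on chromosome 7, fell with SM by 0.13 (SE 0.03, blocked edgeR adjusted p = 0.0492). TRPV6, the epithelial calcium channel gene in the same stretch, chosen after its values were seen, was at 0.0305, 0.53 and 0.708 CPM in untreated replicates 1, 2 and 3, with all libraries numbered 1 below the others. Its level in replicate 1 was near the floor, with 0 CPM in SM and 0.071 CPM in DSM cells. EPHB6 and UBE2R2, the other tested genes of this list, did not lie below, with mean log2 ratios of replicate 1 to the others of 0.10 and 0.055. In the EGF receptor family, 9 of 11 genes were tested and none was called. With the block, 2.74% of all tested genes passed for SM against untreated cells and 3.88% for SM against DSM. The 2 most abundant of the family were ERBB3 at 100 and TGFA at 34.5 CPM over all libraries. In the IL-6 and acute phase list, 14 of 27 were tested, and with the block CEBPB and IL6R rose with SM by 0.33 (SE 0.08) and 0.29 (SE 0.08), while 0 fell, beside 1.2% higher and 1.54% lower over all genes. Without the block, 0 genes of any list were called in any of the 3 comparisons, in which only 3, 0 and 0 of all 15619 tested genes passed. With the block, CEBPB was 0.51 (SE 0.08) higher with SM than with DSM and SERPINA1 lower.

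Markers of the cells that normally make trypsinogens were low. Of 25 acinar markers, 7 had 0 reads in all libraries and 7 were tested. Their summed level was 11.3 to 12.2 CPM in the replicates numbered 1 and 13.1 to 16.9 CPM in the others. Most of it came from BHLHA15, an acinar and secretory cell transcription factor gene, at 6.25, 8.52 and 8.45 CPM in untreated replicates 1, 2 and 3. BHLHA15 rose with SM by 0.35 (SE 0.08, blocked edgeR adjusted p = 0.0122) and was the only called marker of this list, also against DSM (0.34, SE 0.08). The chymotrypsinogen gene CTRC, whose product degrades trypsinogen, lay between 0.337 and 0.619 CPM. Among Paneth cell markers, the defensin genes DEFA5 and DEFA6 had 0 reads, and the summed level, mostly LYZ, was 9.5 to 9.77 CPM in the replicates numbered 1 and 5.28 to 7.2 CPM in the others. Fibroblast markers summed to 24.7 to 26.4 against 12.5 to 19.6 CPM and leukocyte markers to 21.2 to 23.8 against 22.6 to 30.1 CPM. COL3A1, DCN and FAP were at 0 reads. With SM in the blocked fit, the fibroblast marker LUM fell by 0.41 (SE 0.10) and, of 13 tested colon epithelial markers, KRT19 fell by 0.18 (SE 0.03) and VIL1 by 0.14 (SE 0.03). Against DSM these 3 and CDH1 were lower. Of the Paneth and leukocyte markers, 0 of 3 and 0 of 5 tested were called. With the block, 2.74% of all tested genes passed for SM against untreated cells and 3.88% for SM against DSM. The part of these levels in the trypsinogen differences was not tested.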

How the data were processed

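The authors deposited a table of raw read counts per gene, not normalized, for 9 libraries. They also deposited a normalized signal, which on testing equalled the counts divided by 1 constant per library and was used for nothing else. Per the labels' protocols, TRIzol was used to extract RNA and a NuGEN mRNA kit to make the libraries. Counting tools in the submitters' processing notes are featureCounts 2.0.0 and TopHat2 2.1.1 with hg38, and DESeq2 1.26.0. Read handling there lists MultiQC 1.10.1, FastQC 0.11.9, cutadapt 3.4 and bcl2fastq 2.20.0.422. For annotation, strand, read length and multi-mapping, settings were not given in the labels.

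CPM were computed from library totals. Counts were fitted in R 4.3.3 with edgeR 4.0.16 (filterByExpr by group, minimum count 10, minimum total 15, TMM, robust quasi-likelihood, group as the only term, all 9 libraries), which left 15619 genes, the 4 studied genes among them. F tests were two-sided with Benjamini-Hochberg adjustment at 0.05. The SE is the absolute log2 fold change over the square root of F, and intervals use the moderated degrees of freedom. The summed trypsinogens replaced their 3 rows in a separate fit. Replicate numbers come from the labels, which leave their meaning unstated. They were taken to pair libraries: deviations from group means correlated at 0.227 to 0.582 in all 9 pairs of the same number and at -0.404 to 0.161 in pairs of different numbers. A fit with the number as a block is therefore given beside each result. Alternatives used DESeq2 1.42.0, limma 3.58.1 voom, other scalings and filters, and each library left out.

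The genes, gene lists and rules were chosen with earlier results of these data known. Named from each list are up to 4 called genes per comparison, or the 2 most abundant (1 gene is not reported here), and as likeness the 5 highest r among genes of at least 5 CPM, leaving out unnamed loci and pseudogenes. Sequences are from RefSeq (GRCh38.p14) and GENCODE 29 and were aligned with Biopython 1.88. Promoter entries of all 4 genes were found.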

Additional observations from a re-analysis of the deposited data

How the results depend on the processing

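None of the 4 genes passed in any alternative run for any treatment comparison, and the lowest adjusted p of a gene or of the summed trypsinogens over all fits was 0.169. What changed was the number of genes called in all. For SM against untreated it was 3, and 5 without a filter on low counts, 14 by DESeq2, 0 in a fit of only the 2 groups, 428 with the replicate block, 385 by DESeq2 and 438 by limma voom with the block, and 73 with the libraries numbered 1 left out. For SM against DSM it was 0, and 3 without a filter, 11 by DESeq2, 606 with the block, 510 by DESeq2 and 590 by limma voom with the block, and 186 with the libraries numbered 1 left out. Both blocked alternatives and leaving out the libraries numbered 1 were chosen after seeing the data. SPINK1 had no value under the stricter filter, or for SM against untreated in the fit of only those groups, where too few libraries held enough reads. With 1 library left out and no block, the count for SM against untreated was 0 to 3. Removing a library leaves the replicate numbers unequal between groups. Log2 fold changes with 1 library left out changed sign, except that of SPINK1 for DSM against untreated. For SM against untreated they ran from -0.45 to 0.72 for PRSS1, -0.35 to 0.40 for PRSS2, -0.0099 to 0.15 for PRSS3, -0.28 to 1.25 for SPINK1 and -0.29 to 0.37 for the sum. For DSM against untreated they ran from -0.64 to 0.53, -0.40 to 0.36, -0.038 to 0.080, 0.075 to 1.53 and -0.34 to 0.31 in the same order. For SM against DSM they ran from -0.38 to 0.75, -0.34 to 0.42, -0.037 to 0.12, -0.84 to 0.21 and -0.28 to 0.38. With the replicate block no sign differed from the fit without it. The ratio of replicate 1 to the others kept its sign for every gene under TMM, DESeq2 size factors and each library left out, and ran from -1.73 to -1.61 for PRSS2 with 1 library left out. SPINK1 is limited by depth, at 2 to 17 reads per library.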
